A study of Equus caballus with 19 samples.

Results

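Prostaglandin synthesis and signalling was followed through 10 genes, PLA2G4A, PTGS1, PTGS2, PTGES, PTGES2, PTGES3, PTGIS, PTGER2, PTGER4 and HPGD, chosen by name from the 29196 gene names of the expression tables. Earlier results of these data were known when they were chosen, so the shares of all genes given below are descriptions and not tests. The cells were wild-type horse tenocytes, the resident fibroblasts of tendon, taken from the superficial digital flexor tendon. They were seeded in bovine type I collagen gels and harvested for RNA sequencing at day 14. In the first batch, lines 1 to 5 were each sequenced as a control without cytokine and with 1 nM IL-1β (10 libraries). Lines 6 to 8 made up the second batch, each sequenced as a control, with the same dose of IL-1β, and with IL-1β and 100 ng/ml of IL1Ra, the natural antagonist of the IL-1 receptor (9 libraries). Each line came from a single donor horse and gave a single library per condition, so n counts horses. No library received IL1Ra alone.

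Prostaglandins are short-lived lipid mediators of inflammation, pain and fever. Phospholipases free arachidonic acid from membranes, the cyclooxygenases PTGS1 and PTGS2 turn it into prostaglandin H2, and terminal synthases make from this the individual prostanoids, among them prostaglandin E2 (PTGES, PTGES2 and PTGES3) and prostacyclin (PTGIS). Prostaglandin E2 acts on neighbouring cells through receptors such as EP2 (PTGER2) and EP4 (PTGER4), both of which raise cyclic AMP, and is inactivated by the dehydrogenase HPGD. In tendon, prostaglandin E2 is known as a product of inflamed and mechanically loaded tenocytes, and PTGS2 is the target of many anti-inflammatory drugs.

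Values are normalised read counts, scaled within a batch, so no value is compared between batches or between genes. The normalised counts of a library summed to 43393903 to 49197980 (first batch) or 24964149 to 34602014 (second batch). Of the 10 genes, 9 passed the filter on low counts in both batches and HPGD in neither. As a check of the response, the interleukin gene IL6 was upregulated by IL-1β in lines 1 to 5 (log2-fold change 8.72 ± 0.55 (SE, n = 5), adjusted p = 7.99e-06) and in lines 6 to 8 (9.11 ± 0.97 (SE, n = 3), adjusted p = 0.0155). The tenocyte marker TNMD was at 0 in all 10 first-batch libraries, whereas the other 8 tenocyte markers listed were detected, with a sum of 1013334 to 1791051 in control and 425003 to 805437 with IL-1β. Of these 8, 7 had a negative log2-fold change and DCN a positive one (0.73). Markers of other cells differed with IL-1β in the first batch. The summed level of 4 smooth muscle and pericyte markers was 9645 to 16103 in control and 2405 to 3207 with IL-1β, and CDH1, the only one of 4 epithelial markers above 10 in control, had a mean of 2564 in control and 180 with IL-1β. The 10 leukocyte markers summed to 58.3 to 2076 in control and 312 to 3713 with IL-1β, nearly all of it CD68 and CD14. Of the 10, 3 reached 10 normalised counts in any control library and 3 in any IL-1β library. Among the rest, PTPRC, CSF1R, AIF1 and CD3E were at or below 3.64 in every first-batch library. The 6 endothelial markers summed to 30.6 to 57.5 and 22.4 to 92.0. In the second batch the smooth muscle and pericyte markers summed to 1064 to 4265 in control, 413 to 1188 with IL-1β and 408 to 2242 with IL-1β + IL1Ra, and the leukocyte markers to 230 to 1268, 674 to 3054 and 731 to 2051. The tenocyte sums overlapped there, at 237666 to 856667 in control, 304384 to 458712 with IL-1β and 132064 to 792611 with IL-1β + IL1Ra. The part of these markers in the results was not tested, and in bulk samples fewer cells of a type and less RNA per cell cannot be told apart.

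IL-1β raised 4 and lowered 1 of the 9 tested prostaglandin genes in the first batch. PLA2G4A, PTGS2, PTGES and PTGER4 were upregulated, PTGIS was downregulated, and PTGS1, PTGES2, PTGES3 and PTGER2 were not DE. Differential expression (DE) required an adjusted p under 0.05 together with a log2-fold change of 1 or more in either direction. Across all 14719 genes tested in that comparison, 12.8% were DE, 4.91% upward and 7.90% downward. The median log2-fold change of the 9 genes was 0.31, against 0.00 for all genes tested. For the same 5 DE genes the ranges of the control and IL-1β libraries did not overlap, 4 upward and 1 downward, which was also the case for 9.34% and 10.2% of all genes. The fit with the line as a block called the same 5 genes, and 16.2% of all genes.

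**Figure D1:**
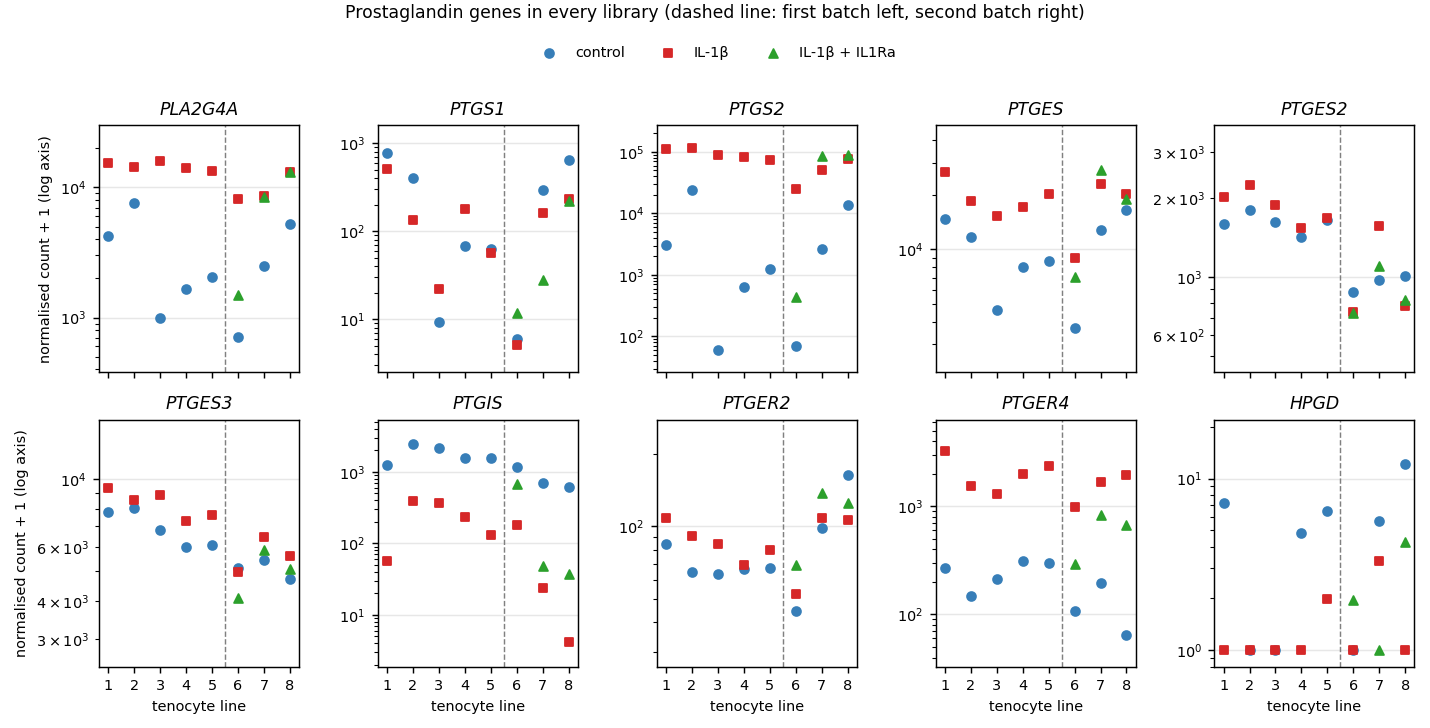
Normalised read count plus 1 (y axis, log scale, separate for each panel) of the 10 prostaglandin genes in every library, by tenocyte line (x axis), with circles for control, squares for IL-1β and triangles for IL-1β + IL1Ra. In lines 1 to 5 the IL-1β squares of PTGS2 and PLA2G4A sit almost level, whereas the control circles of PTGS2 range from 59.6 to 24113.

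PTGS2, the inducible cyclooxygenase, gave the largest change of the 9 genes. Its normalised read count in control was 3054 in line 1, 24113 in line 2, 59.6 in line 3, 632 in line 4 and 1259 in line 5. With IL-1β it was 110155 in line 1, 115228 in line 2, 90739 in line 3, 83165 in line 4 and 74801 in line 5. Every IL-1β library was thus above every control, and the rise within a line was 4.78-fold in line 2, where the control was highest, and 1523-fold in line 3, where it was lowest. The log2-fold change was 6.18 ± 1.23 (SE, n = 5, adjusted p = 0.00472). It was 5.09 without line 3 and 7.16 without line 2, and was DE in both cases.

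PTGS2 was among the genes that differed most between unstimulated lines. The SD of its log2 level over the 5 controls was 3.16, and 99.6% of the genes tested had a smaller SD there, with a median of 0.28. With IL-1β the SD of PTGS2 was 0.26, close to the median of 0.29 for all genes. The highest IL-1β library was only 1.54-fold above the lowest, against 405-fold in control. With IL-1β values so close together, the order of the rises over the lines is the reverse of the order of the controls. In the second batch the SD was likewise 3.90 in control and 0.81 with IL-1β, over 3 lines. These spreads are descriptions of single libraries per line, and their difference was not tested.

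PLA2G4A, which encodes the cytosolic phospholipase that releases arachidonic acid, showed the same shape. Its control values were 4237, 7525, 999.6, 1662 and 2058 in lines 1 to 5, a 7.53-fold range. With IL-1β they were 15281, 14438, 15964, 14111 and 13458, a 1.19-fold range. The SD on the log2 scale was 1.15 in control, and 0.10 with IL-1β, where only 5.63% of genes had a smaller one. The log2-fold change was 2.52 ± 0.45 (SE, n = 5, adjusted p = 0.00268), with a rise in 5 of 5 lines of 1.92-fold to 16.0-fold. The order of the 5 control lines was identical for PLA2G4A and PTGS2, with line 2 highest, then 1, 5, 4 and 3. Nearly the same order was seen for PTGES (1, 2, 5, 4 and 3) and PTGS1 (1, 2, 4, 5 and 3), so it was not particular to these 2 genes. In a RefSeq table of a newer horse assembly, TB-T2T, PLA2G4A and PTGS2 are direct neighbours on the chromosome among protein-coding genes. A link between position and the order of the lines was not tested.

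PTGS1, the constitutive cyclooxygenase, also differed widely between lines but had no common direction. In control it was 769, 398, 8.38, 66.4 and 61.4 in lines 1 to 5, and with IL-1β it was 513, 134, 21.1, 176 and 55.6. It was higher with IL-1β in 2 lines and lower in 3. Its log2-fold change of 0.07 had a 95% interval of -2.56 to 2.70 (adjusted p = 0.975). With the line as a block the interval was -1.01 to 1.15 (adjusted p = 0.916), so that larger common changes lay outside it, whereas the changes of single lines ran from -1.56 to 1.39.

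Of the 3 prostaglandin E synthases, only PTGES passed the DE thresholds in the first batch. PTGES is the inducible microsomal enzyme usually paired with PTGS2, and its control values were 14657, 11687, 4652, 8028 and 8630 in lines 1 to 5. With IL-1β they were 26612, 18535, 15259, 17176 and 20312. The groups did not overlap, although the lowest IL-1β value of 15259 lay close to the highest control value of 14657. For PTGES the log2-fold change was 1.11 ± 0.28 (SE, n = 5, adjusted p = 0.0135), and the rise within a line was 1.59-fold to 3.28-fold. Without line 3 the call was lost on the fold threshold (log2-fold change 0.96, adjusted p = 0.0153). Without line 5 it was lost on the adjusted p (log2-fold change 1.08, adjusted p = 0.0666). PTGES2, the second membrane-associated synthase, ranged from 1418 to 1811 in control and from 1535 to 2243 with IL-1β (log2-fold change 0.20, 95% interval -0.05 to 0.46, adjusted p = 0.213). PTGES3, the cytosolic synthase that is also the heat shock protein co-chaperone p23, ranged from 5992 to 8053 and from 7317 to 9375 (log2-fold change 0.27, 95% interval 0.02 to 0.52, adjusted p = 0.0988). In the fit with the line as a block, PTGES3 reached an adjusted p of 0.0158, still below the fold threshold. Both were higher with IL-1β in 5 of 5 lines, and both intervals ended below the fold threshold.

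PTGIS, the prostacyclin synthase, was the single downregulated gene of the 9. Its control values were 1250, 2455, 2168, 1561 and 1585 in lines 1 to 5. With IL-1β they were 56.4, 394, 365, 231 and 129. Every IL-1β library was far below every control, and line 1 was the lowest in both groups. Its log2-fold change was -3.20 ± 0.48 (SE, n = 5, adjusted p = 0.00111). In contrast to PTGS2, the spread between lines was wider with IL-1β than without, with an SD of 1.16 against 0.39 on the log2 scale.

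The EP receptors differed from each other. PTGER4, which encodes EP4, was 270, 148, 212, 313 and 298 in the controls of lines 1 to 5 and 3244, 1523, 1291, 1984 and 2335 with IL-1β. The groups were well apart, and the rise within a line was 6.08-fold to 12.0-fold. Its log2-fold change of 3.03 ± 0.28 (SE, n = 5) had the smallest adjusted p of the 9 genes, 7.81e-05. PTGER2, which encodes EP2, was 83.3, 63.9, 62.6, 65.3 and 66.4 in control and 107, 89.9, 83.4, 68.1 and 78.8 with IL-1β. It was higher in 5 of 5 lines, but the groups overlapped and it was not DE (log2-fold change 0.31, 95% interval -0.14 to 0.76, adjusted p = 0.283).

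HPGD, the enzyme that inactivates prostaglandin E2, was close to 0 throughout and was not tested. Its control values were 6.17, 0, 0, 3.80 and 5.46 in lines 1 to 5, and with IL-1β it was listed at 0 in lines 1 to 4 and at 0.976 in line 5. In lines 6 to 8 it was 0, 4.64 and 11.2 in control, 0, 2.29 and 0 with IL-1β, and 0.956, 0 and 3.24 with IL-1β + IL1Ra. No library exceeded 11.2, and the values were too low to compare the groups.

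The second batch asked whether IL-1β acted alike in 3 further lines, and 1 of the 9 genes was DE there without a block. This gene was PTGER4, upregulated, in a comparison where 0.341% of the 16705 genes tested were DE. Libraries of a line shared deviations from their group means, and in the fit with the line as a block 3 of the 9 genes were DE, PTGER4, PLA2G4A and PTGIS, against 5.18% of all genes. The groups did not overlap for 4 genes, PTGS2, PLA2G4A and PTGER4 upward and PTGIS downward, against 8.82% of all genes upward and 7.61% downward. Without the block, an unadjusted p under 0.05 was reached by 3 of the 9 (PTGER4, PLA2G4A and PTGIS) and by 11.4% of all genes. The median log2-fold change of the 9 genes was 0.15, against -0.01 for all genes.

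PTGER4 was 107, 196 and 63.3 in the controls of lines 6 to 8 and 987, 1674 and 1921 with IL-1β. Line 8 had the lowest control and the highest IL-1β value, a 30.4-fold rise, while lines 6 and 7 rose 9.23-fold and 8.54-fold. The log2-fold change was 3.73 ± 0.52 (SE, n = 3, adjusted p = 0.0364). The call was lost without line 7 (4.05, adjusted p = 0.339) and without line 8 (3.14, adjusted p = 0.710), where 2 lines remained.

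PTGS2 in control was again very uneven, with 69.2 in line 6, 2655 in line 7 and 13856 in line 8. With IL-1β it was 25408, 51595 and 76823, which is 367-fold, 19.4-fold and 5.54-fold above the control of the same line. All 3 lines were higher, but the log2-fold change of 5.08 ± 2.38 (SE, n = 3) did not pass (adjusted p = 0.469, and 0.0573 with the line as a block). PLA2G4A was 707, 2501 and 5191 in control and 8111, 8632 and 13230 with IL-1β. Its log2-fold change was 2.22 ± 0.91 (SE, n = 3, adjusted p = 0.405, and 0.0400 with the block). In control line 8 was highest and line 6 lowest for both genes, an order shared by 7 of the 10 genes (also PTGS1, PTGES, PTGES2, PTGER2 and HPGD).

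PTGIS was 1164, 699 and 619 in the controls of lines 6 to 8 and 177, 23.1 and 3.17 with IL-1β, lower in 3 of 3 lines. Line 8 was nearly at the limit of detection. This is a log2-fold change of -4.93 ± 1.45 (SE, n = 3, adjusted p = 0.232, and 0.0188 with the line as a block). Without line 6 it was -6.04 and DE (adjusted p = 0.0260). PTGES was 3699, 12882 and 16531 in control and 8914, 23020 and 20364 with IL-1β. It was higher in each line, by 1.23-fold to 2.41-fold, with overlapping groups (log2-fold change 0.80, 95% interval -0.81 to 2.41, adjusted p = 0.785). With the line as a block the interval was 0.22 to 1.39, but PTGES was still not DE (adjusted p = 0.113 in limma).

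The remaining 4 genes had log2-fold changes between -0.87 and 0.15 in the second batch and adjusted p of 0.859 to 0.992. PTGS1 was 5.04, 291 and 648 in control and 4.12, 160 and 229 with IL-1β, lower in 3 of 3 lines with an interval of -5.67 to 3.94, or -2.68 to 0.95 with the block. PTGES2 was 874, 974 and 1005 in control and 732, 1564 and 776 with IL-1β, and its small log2-fold change of 0.02 turned negative under other scalings. PTGES3 was 5111, 5433 and 4716 in control and 4968, 6447 and 5620 with IL-1β. PTGER2 was 43.7, 97.4 and 162 in control and 51.4, 107 and 106 with IL-1β.

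**Figure D2:**
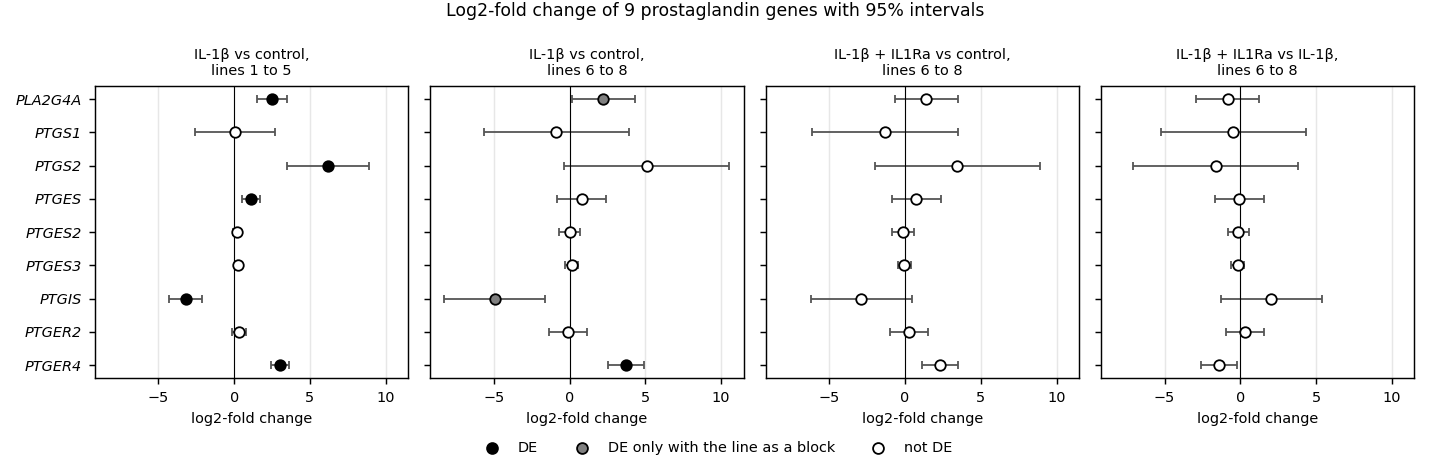
Log2-fold change (x axis) with its 95% interval for 9 prostaglandin genes (rows) in 4 comparisons (panels), with black points for DE genes, grey points for genes DE only when the line was a block and open points for the rest. In the first panel 5 genes are DE, from PTGIS at -3.20 to PTGS2 at 6.18, and in the last panel, IL-1β + IL1Ra against IL-1β, none is.

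The third condition asked how far 100 ng/ml IL1Ra returned these genes towards control when given together with IL-1β. Against IL-1β alone, 0 of the 9 genes were DE with limma, with or without the block. Without the block 1 gene, PTGER4, had an unadjusted p under 0.05. Among all genes 0 were DE (0%) without the block and 1 with it (0.00599%), and 464 (2.78%) had an unadjusted p under 0.05. Against control, 0 of the 9 were DE, where 0.0120% of all genes were (2 genes), and PTGER4 alone had an unadjusted p under 0.05, as did 5.67% of all genes. With the block, 0 of the 9 and 0.251% of all genes were DE against control. The authors' own DESeq2 analysis of this batch, at the same thresholds, reported more DE genes in both comparisons. A gene that was not DE here is thus not shown to be unchanged. Both comparisons use the IL-1β + IL1Ra libraries, and each shares a further group with the comparison of IL-1β with control, so the contrasts are not independent.

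PTGER4 lay between control and IL-1β in each line. With IL-1β + IL1Ra it was 291 in line 6, 823 in line 7 and 671 in line 8. These 3 values were above all 3 controls (63.3 to 196) and below all 3 IL-1β libraries (987 to 1921), a separation seen for 5.80% of all genes upward from control and for 3.35% downward from IL-1β. Its log2-fold change was -1.43 ± 0.52 (SE) against IL-1β (adjusted p = 1.00 in limma) and 2.30 ± 0.52 against control (adjusted p = 0.467). Within a line, PTGER4 with both proteins was 0.295, 0.492 and 0.349 of its level with IL-1β alone.

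PTGS2 with IL-1β + IL1Ra was 443 in line 6, 86103 in line 7 and 88355 in line 8. Line 6 was at 0.0174 of its IL-1β level, whereas lines 7 and 8 were at 1.67 and 1.15 times theirs. Against the control of the same line, PTGS2 was 6.40-fold higher in line 6, 32.4-fold in line 7 and 6.38-fold in line 8. Lines 6 and 8 were thus alike on this measure only, with controls as far apart as 69.2 and 13856. The log2-fold change against IL-1β was -1.63 (95% interval -7.09 to 3.82), and without line 6 it was 0.47. PLA2G4A was 1485, 8412 and 13171, which are 0.183, 0.974 and 0.996 of the IL-1β level in lines 6, 7 and 8, and 2.10-fold, 3.36-fold and 2.54-fold above the control. Line 6 was also the lowest relative to IL-1β alone for IL6, with 13776 in line 6, 201720 in line 7 and 119246 in line 8, against 168090, 136543 and 137101 with IL-1β alone. The pathway genes PLA2G2A and ADCY7, described below, were also raised by IL-1β in line 6 but were not lower there with IL1Ra. They were 6783 and 1722, against 6377 and 1612 with IL-1β alone. Each line has a single library of this condition, so the difference between lines was not tested.

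PTGIS also lay between control and IL-1β in each of the 3 lines. With IL-1β + IL1Ra it was 672 in line 6, 47.3 in line 7 and 36.8 in line 8. These are 3.79, 2.05 and 11.6 times the level with IL-1β alone, and 0.578, 0.0677 and 0.0595 of the control of the line. The log2-fold change against IL-1β was 2.03 (95% interval -1.30 to 5.37), not DE. With the line as a block the interval was 0.18 to 3.88, above 0, but PTGIS was still not DE (adjusted p = 0.541 in limma). Line 6 was the nearest to its control.

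PTGES with IL-1β + IL1Ra was 7043, 27353 and 19039 in lines 6 to 8, which is 0.790, 1.19 and 0.935 of the level with IL-1β alone (log2-fold change -0.06, 95% interval -1.67 to 1.55). PTGS1 was 10.8, 26.9 and 221, PTGES2 was 731, 1107 and 813, PTGES3 was 4071, 5863 and 5079, and PTGER2 was 68.3, 136 and 124. Against IL-1β alone, PTGES3 was lower in 3 of 3 lines, by -0.29 to -0.14 on the log2 scale, and PTGER2 higher in 3 of 3, by 0.24 to 0.40. These changes were small but alike between lines, and neither gene was DE with the line as a block (adjusted p of 0.779 and 0.793 in limma). PTGS1, PTGES and PTGES2 had no common direction over the 3 lines.

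**Figure D3:**
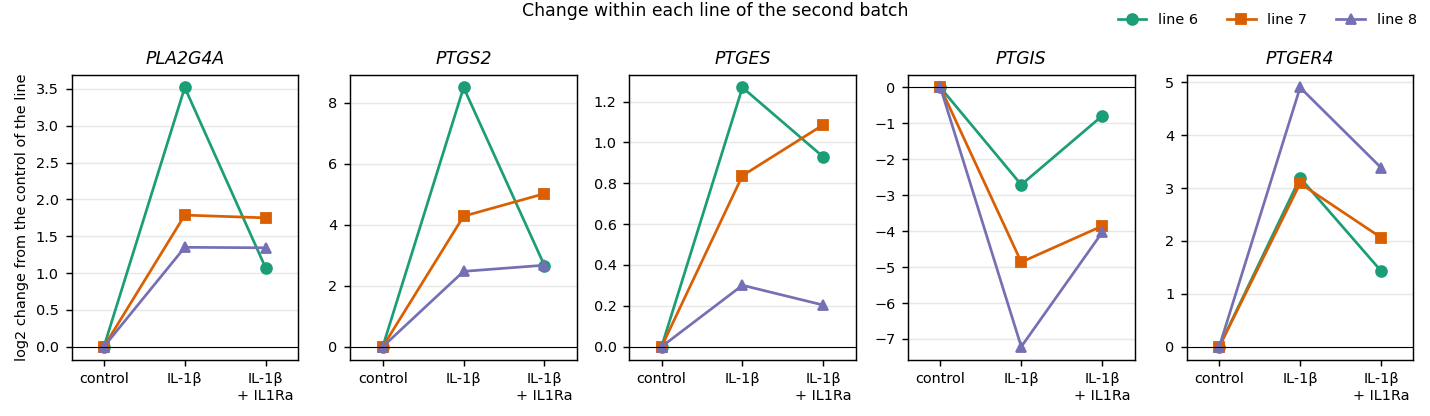
Log2 change from the control of the same line (y axis, its own scale in each panel) in the second batch, for control, IL-1β and IL-1β + IL1Ra (x axis), with a line per tenocyte line. With IL1Ra, PTGS2 and PLA2G4A stand far below IL-1β alone in line 6 only, whereas PTGER4 and PTGIS lie between control and IL-1β in all 3 lines.

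The wider eicosanoid pathway was described with 6 lists of 53 genes, of which 49 were in the tables. In the first batch 38 of these were tested, and 10 were upregulated and 2 downregulated by IL-1β, against 4.91% and 7.90% of all genes. In the second batch 0 of 40 were DE without the block, against 0.341% of all genes. An unadjusted p under 0.05 was reached by 6 of the 40 and by 11.4% of all genes. With the block 5 were DE upward and 1 downward, against 5.18% of all genes in either direction. The median log2-fold change of the lists together was 0.35 for lines 1 to 5 and 0.30 for lines 6 to 8.

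Among 10 genes of arachidonate release tested, 2 were upregulated and 1 downregulated in the first batch, against 4.91% and 7.90% of all genes. PLA2G2A, a secreted phospholipase, was 10.6 to 107 in control and 329 to 3784 with IL-1β (log2-fold change 5.07 ± 0.74 (SE, n = 5), adjusted p = 0.000947). It was also higher in each of lines 6 to 8 and passed with the block (6.13, adjusted p = 0.0311). ACSL4, which ties arachidonate back to coenzyme A, was DE at the edge of the fold threshold (1.00, adjusted p = 0.0229) and not without line 3, 4 or 5 (0.95, 0.96 and 0.95). In lines 6 to 8 ACSL4 was 5390, 9130 and 20290 in control and 12349, 9097 and 17932 with IL-1β, higher in line 6 and slightly lower in the others (0.34, adjusted p = 0.910, and -0.09 without line 6). MGLL, the monoacylglycerol lipase, fell by 2.52 on the log2 scale (adjusted p = 0.00125), with 3098 to 4545 in control and 258 to 1558 with IL-1β. In the second batch MGLL was 1124, 2602 and 801 in control and 1389, 1200 and 69.3 with IL-1β, higher in line 6 and lower in lines 7 and 8 (-1.44, adjusted p = 0.800, and 0.311 with the block).

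Of the 3 other prostanoid synthases tested, 1 was upregulated, PTGDS, a prostaglandin D2 synthase, against 4.91% of all genes. It was at most 1.72 in the 5 controls and 13.3 to 93.9 with IL-1β (adjusted p = 0.000168), which is at least 17.4-fold higher when the control is set to a floor of 3 normalised counts per library. In lines 6 to 8 it was 0.867 to 3.04 in control and 48.4 to 68.3 with IL-1β (adjusted p = 0.0546, and 0.0173 with the block). With IL-1β + IL1Ra it was 6.87, 9.64 and 48.4 in lines 6 to 8, with a log2-fold change of -1.88 against IL-1β (adjusted p = 1.00 in limma). Without the block, PTGDS was 1 of 40 list genes with an unadjusted p under 0.05 there, where 2.78% of all genes had one. Of these 40, 0 were DE there. The log2-fold change was negative for 20 and positive for 20, among them PLA2G2A (0.10), ACSL4 (0.31) and PTGDR (0.46).

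Among the 4 other prostanoid receptors tested, PTGDR and PTGIR were upregulated, against 4.91% of all genes. PTGDR, a receptor for prostaglandin D2 that neighbours PTGER2 in the same RefSeq table, was 167, 65.8, 4.64, 14.6 and 8.74 in control and 1978, 853, 863, 1030 and 757 with IL-1β in lines 1 to 5 (log2-fold change 5.36 ± 0.83, adjusted p = 0.00126). Its log2-fold change in lines 6 to 8 was 1.99 (adjusted p = 0.894, and 0.0378 with the block). PTGIR, the prostacyclin receptor, was 5.51 to 33.4 in control and 18.8 to 68.2 with IL-1β (1.89 ± 0.50, adjusted p = 0.0182). Its call was lost without line 2, 4 or 5 in fits without the block (adjusted p of 0.0684, 0.0809 and 0.0835). PTGIR was higher with IL-1β in each of lines 1 to 5, and with the line as a block it was DE (SE 0.36, adjusted p = 0.0072 in limma). In lines 6 to 8 PTGIR was 14.2, 11.5 and 20.1 in control and 12.4, 42.0 and 88.1 with IL-1β, lower in line 6 and higher in the others (1.23, adjusted p = 0.644, and 0.234 with the block). PTGER1 and PTGER3, the other EP receptor genes, were at most 2.84 in the first batch and were not tested.

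Of 6 transport and breakdown genes tested, 2 were upregulated and 1 downregulated, against 4.91% and 7.90% of all genes. PTGR1 and PTGR3, reductases that act on oxidised prostaglandins, had log2-fold changes of 1.31 (adjusted p = 0.00716) and 1.66 (adjusted p = 0.000747). In the second batch PTGR1 was higher in 2 lines and lower in line 8 (0.59, adjusted p = 0.862, and 0.549 with the block), whereas PTGR3 was higher in 3 of 3 lines and passed with the block (1.54, adjusted p = 0.177, and 0.00752 with the block). SLCO2A1, the transporter that takes prostaglandins into cells, was 262, 180, 2145, 85.1 and 134 in the controls of lines 1 to 5 and 1.21, 5.36, 430, 2.01 and 0.972 with IL-1β (log2-fold change -5.00 ± 1.46, adjusted p = 0.0276). Line 3 was the highest in both groups. The call was lost without line 1, 2, 4 or 5 (adjusted p of 0.0964, 0.0831, 0.0727 and 0.0980), and the value was -5.67 without line 3. These fits had no block. SLCO2A1 was lower with IL-1β in each of lines 1 to 5, and with the line as a block it was DE (SE 0.63, adjusted p = 0.0015 in limma). In lines 6 to 8 SLCO2A1 was 35.4 to 184 in control and at most 1.11 with IL-1β, at least 31.7-fold lower against the same floor (adjusted p = 0.0621, and 0.00569 with the block).

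In the lipoxygenase branch 1 of 5 tested genes was upregulated, against 4.91% of all genes. This was ALOX12, an enzyme that oxidises arachidonic acid (log2-fold change 4.12 ± 1.33, adjusted p = 0.0415). Its control values ranged from 15.9 to 1988, and the call was lost without line 3, 4 or 5 (adjusted p of 0.0752, 0.0983 and 0.137). These fits had no block. ALOX12 was higher with IL-1β in each of lines 1 to 5, and with the line as a block it was DE (SE 0.57, adjusted p = 0.0021 in limma). In lines 6 to 8 ALOX12 was 25.2, 1685 and 3754 in control and 112, 5524 and 3658 with IL-1β, higher in lines 6 and 7 and about level in line 8 (1.26, adjusted p = 0.924, and 0.104 with the block). Of 10 genes that respond to or handle cyclic AMP, the second messenger of EP2 and EP4, 2 were upregulated and 8 were not DE. The share of all genes upregulated was 4.91%. The 2 were ADCY7, an adenylyl cyclase (1.47, adjusted p = 0.000511), and PDE4B, a cyclic AMP phosphodiesterase (1.09, adjusted p = 0.00332, and 0.93 and not DE without line 3). In the second batch both were higher in 3 of 3 lines, ADCY7 by 1.57 (adjusted p = 0.391, and 0.0607 with the block) and PDE4B by 1.49 (adjusted p = 0.160, and 0.0452 with the block).

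**Figure D4:**
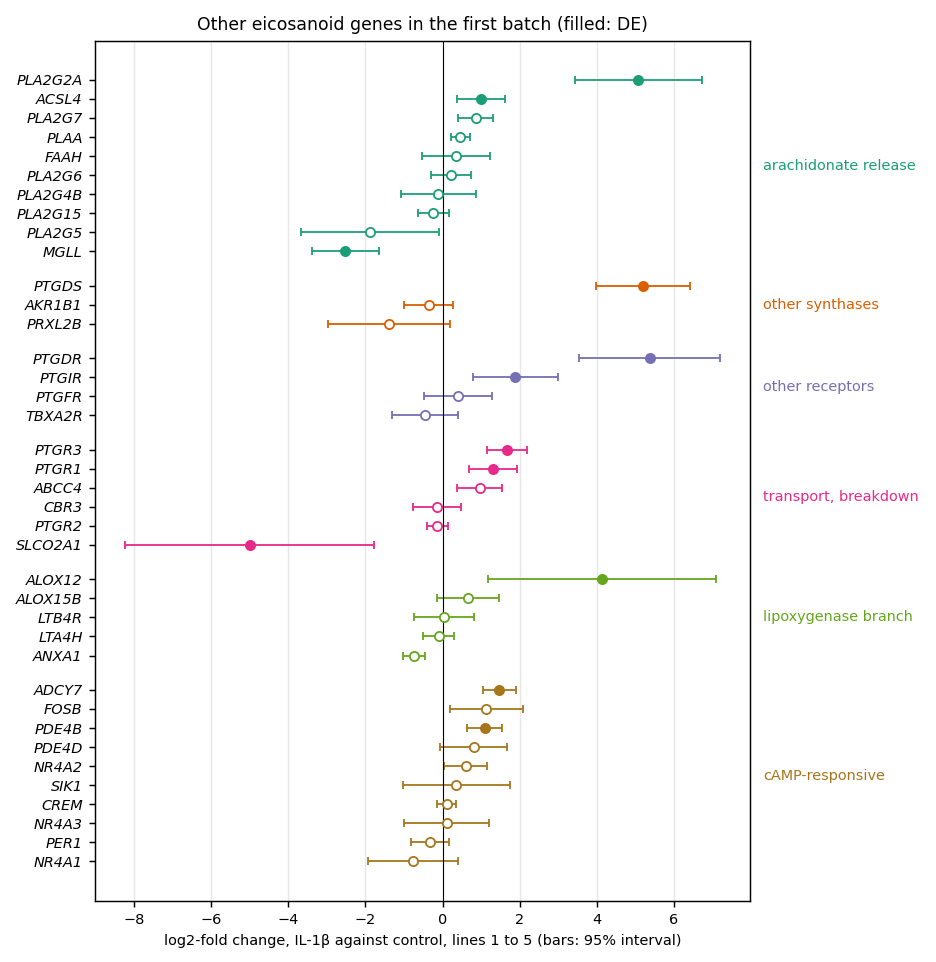
First-batch log2-fold change with IL-1β relative to control (x axis) with its 95% interval for the 38 tested genes of 6 eicosanoid lists (rows, grouped by list), with filled points for DE genes. The DE genes run from SLCO2A1 at -5.00 to PTGDR at 5.36, and 26 of the 38 are not DE.

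For each DE gene of the first batch, the genes with the most similar response over the 8 lines were found as those with the smallest root mean square difference of the within-line log2 changes, among 12357 genes. For PTGS2 these were SLC16A6 (1.01), LIPG (1.18) and MMP3 (1.21), and for PLA2G4A they were SNAP25 (0.487), GPNMB (0.551) and FAM20A (0.561). PTGES was most like B3GALT4 (0.180), SGSM3 (0.185) and WHAMM (0.223). PTGER4 was most like FOXC1 (0.493), SOX5 (0.518) and GPAM (0.537), and PTGIS most like IQGAP2 (0.766), PRELP (0.814) and PODXL (0.916). The differences are on the log2 scale, and those of genes with larger changes are larger by nature.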

How the data were processed

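RNA sequencing covered 19 libraries of horse tenocytes, 10 in a first batch and 9 in a second. The signal values were deposited as normalised counts, for which the authors quantified stranded paired-end mRNA reads against the EquCab3.0 transcriptome with Salmon, collapsed transcripts into genes with tximport and normalised with DESeq2 (1.36, in R 4.2.1) per batch. Whether transcript length entered that step is not given in the sources used here, so a normalised count is not a fixed number of reads. Tests stayed within a batch. Low values were close to whole reads for only 76.7% to 80.3% of them per library (first batch) or 70.5% to 82.9% (second), so no count model was fitted.

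A gene was tested if 5 libraries of the first batch, or 3 of the second, reached 10 normalised counts. Its log2(normalised count + 1) was fitted with limma 3.58.1 in R 4.3.3 (eBayes, trend on), and two-sided p-values were adjusted by Benjamini-Hochberg across all tested genes. Fold changes on this scale understate low genes. The script was tested on simulated data.

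Line numbers pair the libraries, because a line is a donor horse. Deviations from the group means correlated at 0.35 to 0.578 within lines (5 pairs) for the first batch and 0.535 to 0.794 (9 pairs) for the second, and at -0.356 to 0.288 and -0.625 to 0.249 between lines. The main fit had no block. Alternatives were the line as a block, other pseudocounts, filters and scalings, no trend, 2 conditions only and leaving out each line.

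The 10 genes and the lists were chosen with earlier results of these data known. Pathway genes are named if DE in the first batch or with an unadjusted p under 0.05 between IL-1β + IL1Ra and IL-1β. PRXL2B and PTGR3 were matched by older symbols, CBR3 and ALOX12 by gene identifier. Of 29196 names, 25057 (85.8%) matched RefSeq genes of TB-T2T, a newer assembly than EquCab3.0, so no coordinates are given, and sequences were not used here.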

Additional observations from a re-analysis of the deposited data

Results flagged for a closer look

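PTGER2 in the first-batch control of line 1, at 83.3 normalised counts, stood apart from the other 4 controls (62.6 to 66.4), with a gap of 0.798 of the range of the group on the log2 scale. It was 1 of 27 sets of values examined in this way, each the levels of a gene in a condition or its within-line changes. The changes were built from the same libraries, so the sets were not independent. For a single set, chance alone gives about 1 in 20. With IL-1β the same line was also the highest, at 107.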

How the results depend on the processing

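In the comparison of IL-1β with control in the second batch, 1 of the 9 genes was DE, against 3 when the line was a block, 0 without the trend, 0 with 2 conditions only, and 0 to 2 when a line was left out (0 without line 7 or 8, and 2, PTGER4 and PTGIS, without line 6). The call of PTGER4 there had an adjusted p of 0.0579 without the trend and 0.0538 with 2 conditions only. Of the 40 pathway genes, 0 were DE there, against 6 with the block, 1 with a pseudocount of 5, 1 with 2 conditions only and 0 to 3 with a line left out. In the other 3 comparisons no setting moved the count of DE genes among the 9 by over 1.5 times, and leaving out line 3 or line 5 in the first batch took away PTGES. The block changed no other call among the 9 than those given above. DE genes over all tested in the second batch numbered 57 for IL-1β against control and 865 with the block, 34 without the trend, 34 with 2 conditions only, and 0 to 364 with a line left out. For IL-1β + IL1Ra they numbered 2 against control and 0 against IL-1β, with 42 and 1 under the block, and 0 to 63 and 0 to 10 with a line left out. In the first batch 4078 genes passed without the fold threshold.

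Directions turned only for changes that were not DE. With equal library sums, PTGES2 and PTGES3 in the second batch with IL-1β were -0.16 and -0.030, and PTGES between IL-1β + IL1Ra and IL-1β was 0.039. With equal upper quartiles PTGES2 was -0.015. Leaving out a line gave ranges of -0.26 to 0.48 for PTGS1 in the first batch, and, for IL-1β against control in the second, -0.24 to 0.18 for PTGER2 and -0.31 to 0.21 for PTGES2. Between IL-1β + IL1Ra and IL-1β the ranges were -2.82 to 0.47 for PTGS2, -1.29 to 0.58 for PTGS1, -0.22 to 0.076 for PTGES and -0.25 to 0.032 for PTGES2, and against control -0.11 to 0.11 for PTGES3. ACSL4 in the second batch with IL-1β ran from -0.092 to 0.60. The cause was not tested. With 3 lines and wide spread between them, the second batch without the block leaves intervals of several log2 units for PTGS2, PTGS1 and PTGIS.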
